A study of Mus musculus with 18 samples.

Results

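The cytosolic glutathione S-transferases of the alpha, mu and pi classes were followed across the livers of normal control, high-fat and SZ-A-treated mice. The 10 genes were taken by symbol from the 54532 genes of the deposited expression table. They were Gsta1, Gsta2, Gsta3 and Gsta4 of the alpha class, Gstm1, Gstm2, Gstm3, Gstm4 and Gstm6 of the mu class, and Gstp1 of the pi class. All 10 had a mean of at least 1 FPKM (fragments scaled to gene length and library size) over the 18 mice, the filter that left 10216 genes to be tested. Gsta1 passed it only through the HFD mice, with means of 0.850, 4.45 and 0.851 FPKM in NC, HFD and SZ-A mice, so a higher value in HFD mice was a condition of its being tested. Gsta1 and Gstm3 are among the genes that the study displayed for these same livers, so their values here are not independent evidence of a change.

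Liver poly-A RNA of 18 male C57BL/6J mice was sequenced, 6 mice in each of 3 groups. Normal control (NC) mice had a standard diet, and high-fat controls (HFD) had the D12492 high-fat diet for 14 weeks and then saline. SZ-A mice had the same high-fat diet and then SZ-A, the alkaloids of the mulberry twig (Ramulus Mori, Sangzhi). Both groups stayed on the high-fat diet while saline or SZ-A was given. The mice entered the study at 6 weeks of age and were fasted overnight before tissue was taken. Treatment lasted 6 weeks by the study's methods and 8 weeks by the deposited description, and the dose and route of the sequenced SZ-A mice are not given. The mouse NC6 is titled as chow but carries a high-fat diet label. It was kept in NC, and without it the same 4 transferase genes passed the test in HFD against NC mice and none in SZ-A against NC mice.

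Glutathione S-transferases join the thiol of glutathione to electrophilic compounds such as drug metabolites, epoxides and the aldehydes left by lipid peroxidation. The products leave the cell through ABC transporters and are trimmed to mercapturates. The liver is rich in these enzymes, and their genes are known targets of NRF2, which binds antioxidant response elements, and of the xenobiotic receptors CAR and PXR. Alpha enzymes also reduce lipid hydroperoxides, Gsta4 prefers the lipid aldehyde hydroxynonenal, and Gstp1 is known for its high level in male mouse liver.

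The genes lie in clusters of close relatives, so their sequences set which values can be read gene by gene. In GRCm38, Gsta1 (ENSMUSG00000074183, chromosome 9, 78230656 to 78242684), Gsta2 (ENSMUSG00000057933, 78331018 to 78355788) and Gsta4 (ENSMUSG00000032348, 78182774 to 78209349) are neighbours. Gsta3 (ENSMUSG00000025934) stands apart on chromosome 1, 21240589 to 21265661. The mu genes share a stretch of chromosome 3, with Gstm6 (ENSMUSG00000068762, 107938847 to 107943749), Gstm3 (ENSMUSG00000004038, 107963696 to 107969283), Gstm2 (ENSMUSG00000040562, 107981702 to 107986453), Gstm1 (ENSMUSG00000058135, 108012255 to 108017973) and Gstm4 (ENSMUSG00000027890, 108040408 to 108044894) in that order. Gstp1 (ENSMUSG00000060803) is on chromosome 19, 4035407 to 4037921. Coding sequences were 65.5% to 97.6% identical within the alpha class, 71.6% to 84.7% within the mu class and 44.2% to 49.6% between classes.

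An alpha stretch is shown because Gsta1 cannot be told from 2 relatives in it. It holds coding bases 31 to 90, counted from the first base of the start codon, and lies in the first 2 coding exons. Capitals mark bases that differ from Gsta1. For Gsta1 it is chromosome 9, 78232270 to 78232326 and 78235084 to 78235086 on the plus strand, for Gm3776 78258742 to 78258798 and 78261556 to 78261558 on the plus strand, for Gsta2 78341830 to 78341886 and 78338694 to 78338696 on the minus strand, and for Gsta4 78198320 to 78198376 and 78199490 to 78199492 on the plus strand. For Gsta3 it is chromosome 1, 21249802 to 21249858 and 21257331 to 21257333 on the plus strand.
Gsta1: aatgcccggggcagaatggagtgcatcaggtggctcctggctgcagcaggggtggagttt
Gm3776: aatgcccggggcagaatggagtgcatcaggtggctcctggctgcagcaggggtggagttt
Gsta2: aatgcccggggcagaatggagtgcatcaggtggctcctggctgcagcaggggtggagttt
Gsta3: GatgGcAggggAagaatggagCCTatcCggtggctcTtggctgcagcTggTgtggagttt
Gsta4: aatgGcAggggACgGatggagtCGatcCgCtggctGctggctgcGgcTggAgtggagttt

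Gm3776, a predicted protein-coding gene, and Gsta2 had 0 bases different from Gsta1 over this stretch, while Gsta3 had 11 and Gsta4 had 13. Over the whole coding sequence Gsta1 was 99.7% identical to Gm3776, 97.6% to Gsta2, 73.4% to Gsta3 and 65.5% to Gsta4. Cut into all overlapping 100-base words, 80.6% of the words of Gsta1 transcripts also occurred in another gene, 553 of 855 in Gm3776 and 208 in Gsta2. The share was 28.4% for Gsta2 and 0% for Gsta3 and Gsta4. How the authors treated fragments that match several genes is not given in the sources used here, so the split of fragments between Gsta1, Gm3776 and Gsta2 is uncertain, and the values of Gsta3 and Gsta4 do not carry this doubt at that word length.

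The mu stretch of the same coding bases is shown against Gstm3, the mu gene with the largest log2 fold change in HFD against NC mice. It is on the minus strand of chromosome 3, at 107969105 to 107969110 and 107968785 to 107968838 for Gstm3, 108017740 to 108017745 and 108017373 to 108017426 for Gstm1, 107986358 to 107986363 and 107986056 to 107986109 for Gstm2, 108044637 to 108044642 and 108044375 to 108044428 for Gstm4, and 107943598 to 107943603 and 107943267 to 107943320 for Gstm6. Capitals mark bases that differ from Gstm3.
Gstm3: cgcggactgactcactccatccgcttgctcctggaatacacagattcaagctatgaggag
Gstm1: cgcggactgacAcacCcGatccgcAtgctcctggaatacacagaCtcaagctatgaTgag
Gstm2: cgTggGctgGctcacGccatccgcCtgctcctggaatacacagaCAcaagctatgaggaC
Gstm4: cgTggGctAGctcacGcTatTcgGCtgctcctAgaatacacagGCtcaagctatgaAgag
Gstm6: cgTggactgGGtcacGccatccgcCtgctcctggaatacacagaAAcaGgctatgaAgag

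Each mu gene differed from Gstm3 in this stretch, by 6 bases in Gstm1, 8 in Gstm2, 9 in Gstm6 and 13 in Gstm4. The share of 100-base words found in another gene was 13.8% for Gstm3, mostly in Gm8834, 5.86% for Gstm1, 1.1% for Gstm6, 0.357% for Gstm2 and 0% for Gstm4. For Gstp1 it was 25.1%, with 486 of 1937 words in Gstp2, whose coding sequence was 98.1% identical, and 210 in the processed pseudogene Gstp-ps.

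In NC livers the 3 classes were far from equal in level. FPKM is scaled by the length of the annotated gene, which was 4344 bases for Gsta3 and from 757 (Gstp1) to 1989 (Gstm6) for the others. Ranks between genes therefore depend on those lengths. In HFD mice Gsta3 had 16128 to 22609 fragments and Gstm1 had 12078 to 20435, yet Gsta3 ranks below Gstm1 by FPKM. Gstp1, Gstm1, Gsta3 and Gstm4 held ranks 1, 2, 3 and 4 in 6 of 6 NC mice. Gsta1 was the lowest of the 10 as listed in every NC and every HFD mouse, a place that depends on how its shared fragments were counted, and Gstm3 had rank 9 in every NC mouse. The middle genes changed places from mouse to mouse, with Gsta4 at rank 5 to 6, Gstm2 at 5 to 8, Gstm6 at 6 to 8 and Gsta2 at 7 to 8. In HFD and in SZ-A mice Gsta3 stayed at rank 3, while Gstp1 and Gstm1 exchanged ranks 1 and 2 between mice.

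**Figure D1:**
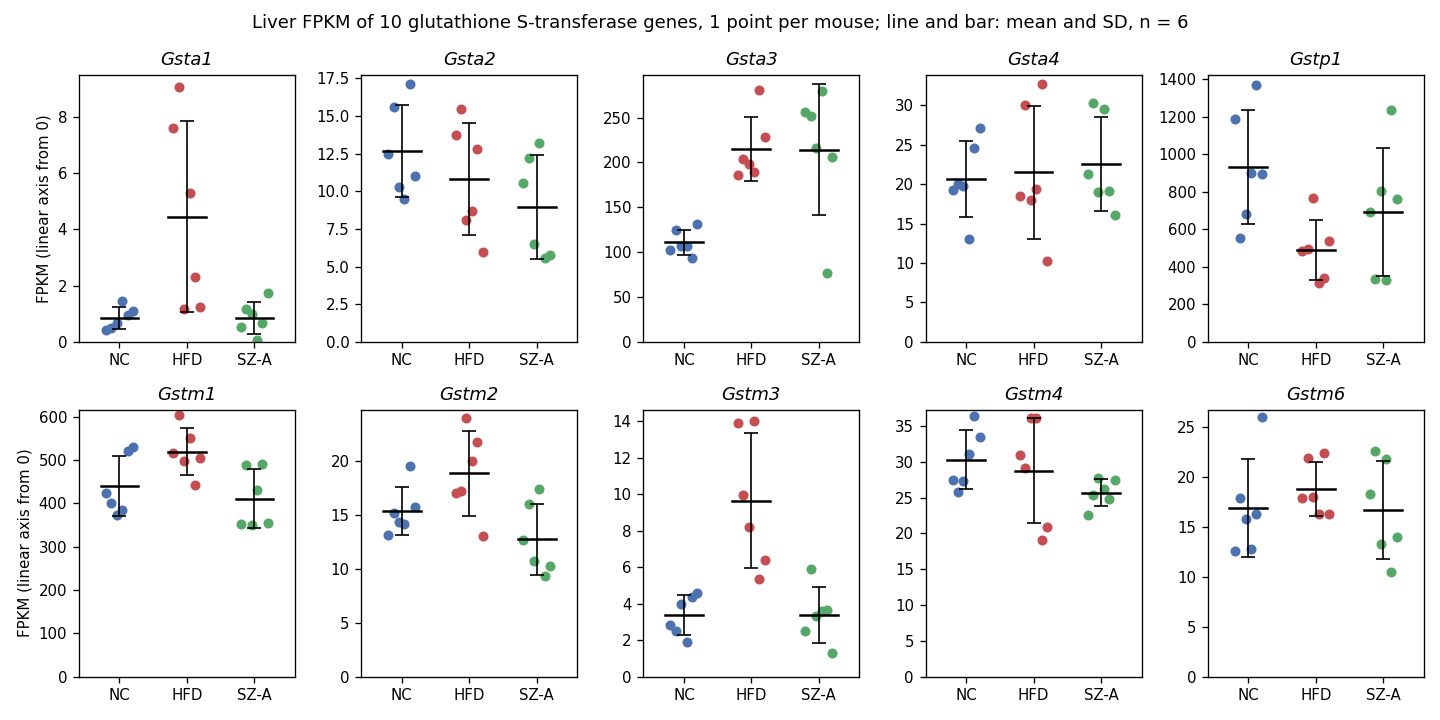
FPKM of the 10 genes in each of the 18 livers, on a linear axis from 0 with its own scale per gene. Each point is a mouse, the line is the group mean and the bar the SD (n = 6). Gsta3 was at 93.5 to 131 FPKM in NC and 186 to 281 in HFD mice, and Gstm3 at 1.92 to 4.61 and 5.35 to 14.0. Gsta1 was spread from 1.17 to 9.06 FPKM in HFD mice, and a single SZ-A mouse lay at 76.6 FPKM for Gsta3.

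HFD against NC mice compares saline-treated mice on the high-fat diet with normal controls. Gsta1, Gsta3 and Gstm3 were higher in HFD mice and Gstp1 was lower, so 4 of the 10 genes passed the test. The call of Gsta1 is given as a description only, since the filter let it in through the HFD mice. Calls needed an adjusted p (Benjamini-Hochberg, over all 10216 genes) under 0.05 and a fold change over 1.2, in a limma fit of log2(FPKM + 0.1). Over all genes tested, 10.7% were called higher and 9.49% lower in the same comparison. The median log2 fold change was 0.22 over the 10 genes and -0.03 over all genes.

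Gsta3, the abundant alpha enzyme that conjugates aflatoxin epoxide in mice, was at 93.5, 107 and 131 FPKM in NC mice (lowest, median and highest) and at 186, 201 and 281 in HFD mice. The groups did not overlap. How many of all genes tested had groups without overlap was not counted, so here and for Gstm3 this is a description only. The means were 110.8 ± 14.2 and 214.6 ± 35.8 FPKM (SD, n = 6 each), a 1.93-fold difference with a log2 fold change of 0.95 (standard error, SE, 0.12, adjusted p = 0.000188). It had the smallest adjusted p of the 10 genes and rested on 6576 to 22609 fragments per mouse.

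Gstm3, a low-level mu enzyme, was at 1.92, 3.40 and 4.61 FPKM in NC mice and at 5.35, 9.09 and 14.0 in HFD mice, again with no overlap. The means were 3.37 ± 1.11 and 9.63 ± 3.70 FPKM. The log2 fold change was 1.46 (SE 0.27, adjusted p = 0.00243), and the gene was called in 25 of 25 alternative settings.

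Gsta1, an inducible alpha enzyme with little expression in NC livers, was at 0.416, 0.826 and 1.45 FPKM in NC mice and at 1.17, 3.81 and 9.06 in HFD mice. HFD1, HFD2 and HFD4 held 7.62, 9.06 and 5.31 FPKM, HFD5 held 2.31, and HFD3 and HFD6 held 1.17 and 1.24, inside the NC range. The log2 fold change was 1.95 (SE 0.50, adjusted p = 0.0153), from 7 to 28 fragments per NC mouse and 21 to 199 per HFD mouse. Without a filter on low genes the call was lost (adjusted p = 0.0567). The near-identical Gm3776 was under the filter and was not tested. It was between 0 and 0.791 FPKM in NC mice and between 0.706 and 3.34 in HFD mice. The sum of Gsta1 and Gm3776 was 0.416 to 2.24 FPKM in NC and 1.95 to 12.4 in HFD mice, so the groups overlapped in the sum as well.

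Gstp1, the pi enzyme and the highest of the 10 by FPKM in NC livers, was at 552, 898 and 1371 FPKM in NC mice and at 313, 490 and 765 in HFD mice. The groups overlapped, but each HFD mouse was below the NC mean of 931 ± 306 FPKM. The HFD mean was 489 ± 162, a log2 fold change of -0.92 (SE 0.25, adjusted p = 0.0182). The call was lost when low genes were not filtered out, which raises the number of tests (adjusted p = 0.0637), and with the replicate number as a term, the replicate block (adjusted p = 0.0544).

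The pseudogene Gstp-ps, an intronless copy of Gstp1 on chromosome 1, had 12.2% to 16.9% of the Gstp1 FPKM in every one of the 18 mice. It was called lower with the diet as well (log2 fold change -0.94, SE 0.25, adjusted p = 0.0163). Since the genes share sequence, these are not separate measurements. Gstp2 and Gstp3, the neighbours of Gstp1, were far lower as listed. They were at 2.71 ± 1.40 and 10.8 ± 4.69 FPKM in NC and 3.70 ± 3.18 and 13.7 ± 2.52 in HFD mice. Neither was called (adjusted p = 0.890 and 0.193). Of the words of Gstp1 transcripts, 486 also occurred in Gstp2 and 210 in Gstp-ps. The split of fragments between Gstp1 and Gstp2 is therefore uncertain as well, and the level and test of Gstp2 are a description only.

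**Figure D2:**
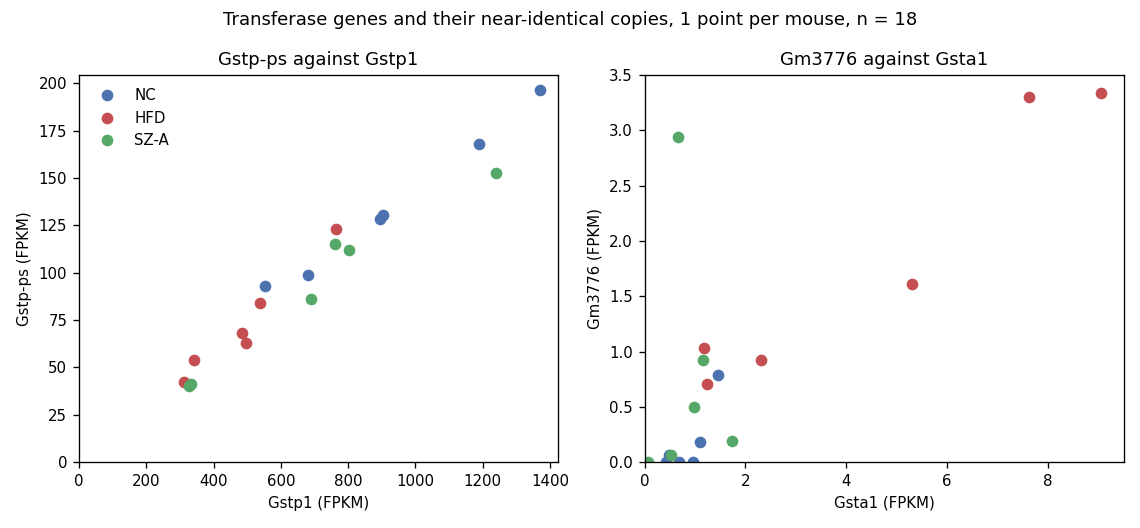
FPKM of 2 near-identical copies against the gene they resemble, 1 point per mouse, coloured by group, on linear axes from 0. Gstp-ps lay at 12.2% to 16.9% of Gstp1 in all 18 mice, whereas Gm3776 varied between 0 and 3.34 FPKM with no fixed share of Gsta1.

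The other 6 genes were not called. Gstm1, the main mu enzyme of mouse liver, was at 372, 413 and 531 FPKM in NC and at 443, 511 and 604 in HFD mice (log2 fold change 0.25, SE 0.11, adjusted p = 0.129), with 6 of 6 HFD mice above the NC mean. Gstm2 was at 15.3 ± 2.22 and 18.8 ± 3.92 FPKM (log2 fold change 0.28, SE 0.14, adjusted p = 0.175). Both were called after FPKM were rescaled to 1 sum shared by all mice (adjusted p = 0.0199 and 0.0140) and with sample weights (0.0178 and 0.0468), and Gstm2 also without HFD6 (0.0440).

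Gsta2, Gsta4, Gstm4 and Gstm6 had log2 fold changes of -0.27, -0.01, -0.11 and 0.18 with SEs of 0.23, 0.25, 0.16 and 0.16. Their adjusted p values were 0.421, 0.989, 0.681 and 0.450. Gsta2, the nearest relative of Gsta1 among the 10, was at 12.7 ± 3.07 FPKM in NC and 10.8 ± 3.72 in HFD mice, and Gsta4 was at 20.7 ± 4.84 and 21.5 ± 8.41. Gsta4 and Gstm4 changed sign under the rescaled FPKM, which moved the median of all genes from -0.03 to 0.15, so no direction is given for them.

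**Figure D3:**
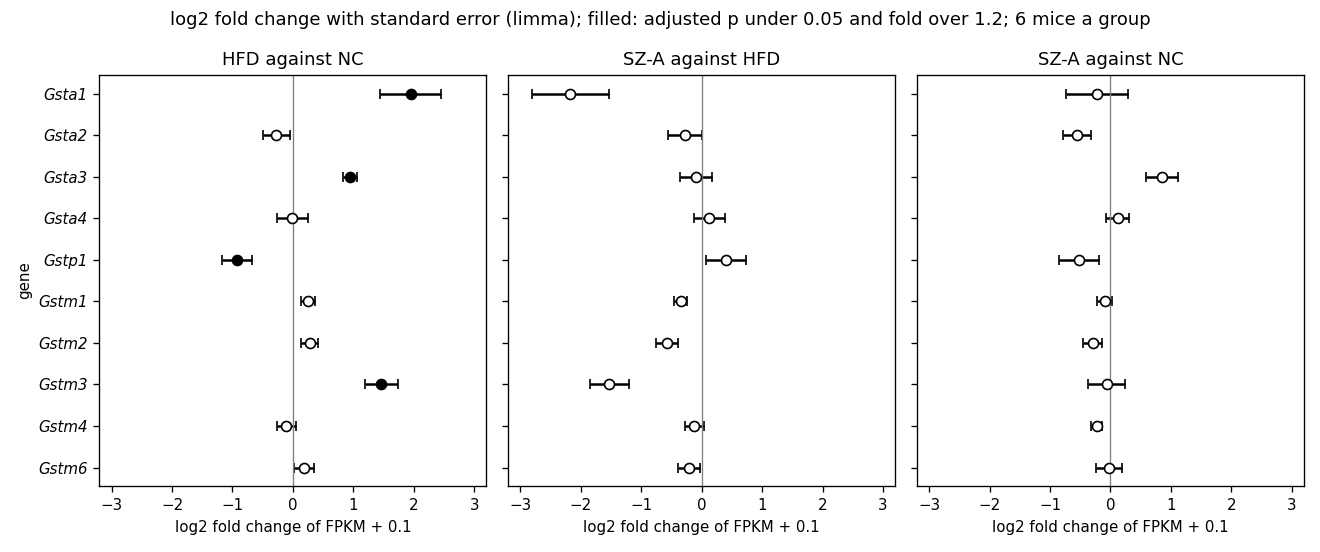
log2 fold change of FPKM + 0.1 for each gene in the 3 comparisons, with its standard error from limma (6 mice a group). Filled points passed the test. Of the 10 genes, 4 are filled in HFD against NC and none in the comparisons with SZ-A, where Gsta1 (-2.17) and Gstm3 (-1.53) lay furthest from 0 in SZ-A against HFD.

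SZ-A against HFD mice asks what treatment did on the same diet. None of the 10 genes was called by limma, nor by voom on the recovered fragments, against 0.0783% of all genes called higher and 0.0685% called lower. With DESeq2 at the same cut-offs the study reported many more genes for this comparison. A gene that was not called here may therefore still differ. At an unadjusted p under 0.05 there were 4 of 10, all lower with SZ-A (Gsta1, Gstm1, Gstm2 and Gstm3), where 14.8% of all genes reached that level. The median log2 fold change was -0.24 over the 10 genes and 0.03 over all genes. The filter let Gsta1 in only through the HFD mice, so its place in this count and median is a description only.

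Gstm3 was at 1.30, 3.44 and 5.92 FPKM in SZ-A mice, a mean of 3.37 ± 1.53, and 6 of 6 lay below the HFD mean. The groups overlapped only through SZ-A2 at 5.92, which was above HFD5 at 5.35. The log2 fold change was -1.53 (SE 0.33, adjusted p = 0.0865). It passed with all 18 mice in one fit (adjusted p = 0.0437), with FPKM rescaled to a common sum (0.0367), with sample weights (0.0248) and without SZ-A2 (0.0377), and failed in the other 21 alternatives.

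Gsta1 was at 0.0578, 0.816 and 1.73 FPKM in SZ-A mice, a mean of 0.851 ± 0.575, from 1 to 30 fragments. The SZ-A and HFD groups overlapped, and 6 of 6 SZ-A mice were below the HFD mean. The log2 fold change of -2.17 had a standard error of 0.64 and did not pass (adjusted p = 0.1496), nor did it in any of 24 alternatives. Gm3776 ran from 0 to 2.95 FPKM in SZ-A mice, and the sum of both genes from 0.0578 to 3.60.

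Gstm1 was at 411 ± 67.8 FPKM and Gstm2 at 12.7 ± 3.30 in SZ-A mice, with log2 fold changes against HFD of -0.35 (SE 0.11, adjusted p = 0.181) and -0.57 (SE 0.18, adjusted p = 0.164). All 6 SZ-A mice were below the HFD mean for both. Gstm1 passed with sample weights (adjusted p = 0.0444) and Gstm2 with FPKM rescaled to a common sum (adjusted p = 0.0470).

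Gsta3 was on average the same in both groups that ate the high-fat diet, at 214.4 ± 72.8 FPKM with SZ-A and 214.6 ± 35.8 in HFD mice (log2 fold change -0.10, SE 0.27, adjusted p = 0.899). Without SZ-A5, the mouse at 76.6 FPKM, the log2 fold change was 0.18, so its sign rests on that mouse. SZ-A5 also held the highest SZ-A values of the bile duct markers Krt19, Muc1 and Tff2, at 8.45, 3.93 and 6.07 FPKM. The SZ-A medians of these markers were 0.375, 0.153 and 0.134. The list of 8 bile duct markers was not uniform. Sox9 reached at most 1.204 FPKM in SZ-A mice, beside a median of 1.146. The highest Spp1 value in SZ-A mice, 26.97 FPKM, was below the highest HFD and NC values of 41.03 and 35.04. Krt7, Epcam and Cldn7 had highest SZ-A values of 0.3814, 2.243 and 1.028 FPKM, above those of both other groups. The part of these markers in the Gsta3 value of SZ-A5 was not tested. Gstp1 was at 329, 725 and 1238 FPKM in SZ-A mice, a mean of 692 ± 340 and a log2 fold change of 0.41 (SE 0.33, adjusted p = 0.603). The SZ-A range spanned nearly all of the HFD range and most of the NC range. Gsta2, Gsta4, Gstm4 and Gstm6 had log2 fold changes from -0.28 to 0.13 and adjusted p values from 0.633 to 0.859.

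SZ-A against NC mice compares treated mice on the high-fat diet with normal controls. It shares the SZ-A mice with one comparison above and the NC mice with the other. None of the 10 genes was called by limma and 1, Gsta3, by voom (adjusted p = 0.0474), where 5.31% of all genes were called higher and 4.3% lower. At an unadjusted p under 0.05 there were 3 of 10 (Gsta2, Gsta3 and Gstm4), against 25.5% of all genes. The median log2 fold change was -0.16 over the 10 genes and -0.01 over all genes.

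Gsta3 came closest to the threshold, with 5 of 6 SZ-A mice above the NC mean and above every NC mouse. The log2 fold change was 0.85 (SE 0.26, adjusted p = 0.0562). Without SZ-A5 it was 1.13 (adjusted p = 0.000202), and over the 25 alternatives the adjusted p ran from 0.000202 to 0.169. Gsta1 and Gstm3 had means in SZ-A mice of 0.851 and 3.37 FPKM beside 0.850 and 3.37 in NC mice. Their log2 fold changes were -0.22 and -0.06 with standard errors of 0.51 and 0.31 (adjusted p = 0.838 and 0.930), so at this spread differences of that size were not detectable.

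Gstm4 was at 25.7 ± 1.93 FPKM in SZ-A and 30.3 ± 4.12 in NC mice, with 6 of 6 SZ-A mice below the NC mean (log2 fold change -0.23, SE 0.09, adjusted p = 0.142). Gsta2 was at 8.96 ± 3.43 and 12.7 ± 3.07 FPKM, a log2 fold change of -0.55 (SE 0.24, adjusted p = 0.165). Gstp1 had a log2 fold change of -0.52 (SE 0.33, adjusted p = 0.346), and Gstm1, Gstm2, Gstm6 and Gsta4 lay between -0.29 and 0.12.

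Summed by class, the alpha genes had medians of 137, 236 and 266 FPKM (NC, HFD, SZ-A), with ranges of 131 to 171, 223 to 329 and 102 to 322. The mu genes had medians of 472, 590 and 454 FPKM, and the pi gene 898, 490 and 725. The pi share of all 10 genes ranged over 47.0% to 65.9% for NC mice, 26.7% to 48.6% for HFD mice and 28.1% to 65.9% for SZ-A mice. The sum of all 10 genes overlapped between the groups, at medians of 1577, 1326 and 1392 FPKM. These sums are descriptions and were not tested. They are ruled by Gsta3, Gstm1 and Gstp1 and hold little of Gsta1 and Gstm3. The sums and shares also depend on the gene lengths behind the FPKM.

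**Figure D4:**
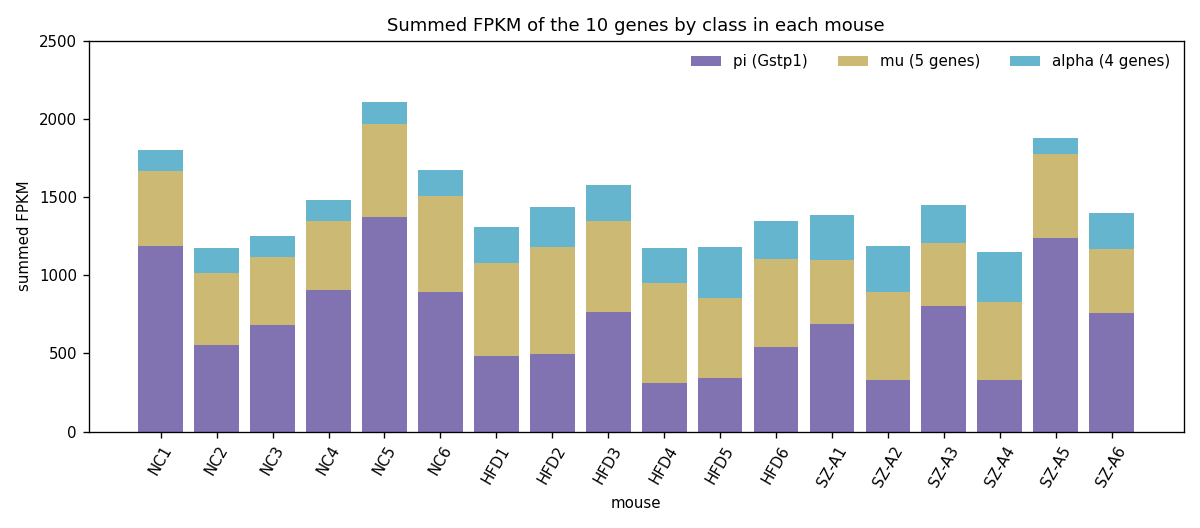
Summed FPKM of the 10 genes in each of the 18 mice, stacked by class on an axis from 0. The pi part was 552 to 1371 FPKM in NC and 313 to 765 in HFD mice, and the alpha part was 131 to 171 in NC and 223 to 329 in HFD mice.

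The promoters of the 3 genes that were higher in HFD mice are shown because NRF2 and the aryl hydrocarbon receptor are known to act through short motifs before these genes. The bases come from RefSeq (build GRCm38.p6), 250 before each start, less 13 for Gsta1 and 109 for Gstm3 that lie inside the gene as annotated in the deposited table. Capitals mark the antioxidant response element core TGACNNNGC, sought on both strands along with the core GCGTG of the xenobiotic response element. The motifs do not overlap here.
Gsta1 (chr9:78230419-78230655, plus strand): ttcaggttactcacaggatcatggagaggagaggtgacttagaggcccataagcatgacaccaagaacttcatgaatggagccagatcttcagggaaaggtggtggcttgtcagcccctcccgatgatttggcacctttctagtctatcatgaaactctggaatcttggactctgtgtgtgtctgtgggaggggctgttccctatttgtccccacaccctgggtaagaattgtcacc
Gsta3 (chr1:21240335-21240584, plus strand): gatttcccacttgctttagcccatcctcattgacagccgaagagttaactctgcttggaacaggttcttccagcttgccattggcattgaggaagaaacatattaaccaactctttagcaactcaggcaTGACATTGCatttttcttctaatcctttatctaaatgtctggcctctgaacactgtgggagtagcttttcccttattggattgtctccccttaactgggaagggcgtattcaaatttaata
Gstm3 (chr3:107969284-107969424, minus strand): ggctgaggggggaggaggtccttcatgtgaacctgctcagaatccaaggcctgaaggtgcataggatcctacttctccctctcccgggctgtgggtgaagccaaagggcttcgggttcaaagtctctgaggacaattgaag

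Entries were found for 9 of the 10 genes, all but Gsta4, with 13 promoters in all. Gsta3 alone of these 9 held TGACNNNGC, on its own strand with the first base at position -121 from the start, and 10.2% of 32851 RefSeq promoters of this length held it. GCGTG was in the promoters of Gsta2, Gstm1 and Gstp1, and in 28.2% of all promoters. The search took only C after TGA. The Gstp1 window holds tgagtcagc, which has G there and was not counted. A match of letters is not a bound site, and these windows say nothing of sites further away.

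The wider transferase family and its pathway were read from 6 lists with 94 genes, 76 of which passed the filter. In HFD against NC mice 20 of the 76 were called higher and 5 lower. Cyp2b13, among the 20, passed the filter only through the HFD mice. Over all genes tested 10.7% were called higher and 9.49% lower, shares that belong beside the counts of each list below. With FPKM rescaled to a common sum the split was 36 higher and 1 lower, and over all genes it went from 1092 higher and 970 lower to 2100 and 334. In SZ-A against HFD mice none was called by limma or voom and 14 had an unadjusted p under 0.05, where 14.8% of all genes did. Gpx7, among the 14, had means of 0.911, 1.38 and 0.876 FPKM in NC, HFD and SZ-A mice. It passed the filter only through the HFD mice, so its place in this count is a description only. In SZ-A against NC mice 11 were called higher and 3 lower, where 5.31% of all genes were called higher and 4.3% lower.

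Among the other glutathione transferases, 12 of 20 were tested. Mgst3, a membrane-bound transferase and peroxidase, was higher in HFD mice, at 16.9 ± 4.88 against 7.35 ± 1.19 FPKM in NC (log2 fold change 1.15, adjusted p = 0.000836). Gstt1 of the theta class was at 163 ± 34.9 and 99.0 ± 24.9 FPKM (log2 fold change 0.73, adjusted p = 0.0109). Gsto1 of the omega class was lower, at 43.3 ± 4.42 against 59.5 ± 10.9 FPKM (log2 fold change -0.45, adjusted p = 0.0137).

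Gstt1 and Gsto1 were also called in SZ-A against NC mice, with log2 fold changes of 0.70 and -0.39 (adjusted p = 0.0430 and 0.0465). Mgst3 was at 10.98 ± 4.38 FPKM in SZ-A mice, not called against either group (adjusted p = 0.257 and 0.183). The microsomal Mgst1, at 1393, 1390 and 1430 FPKM in NC, HFD and SZ-A mice, was the most abundant of the tested transferases by group mean and was not called (adjusted p = 0.861 to 0.978). Gstm5, Gstm7, Gstp2, Gstp3, Gstt2, Gstt3, Gstk1 and Gstz1 were not called in any comparison.

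Of the genes of glutathione synthesis, recycling and peroxidases, 5 of 16 were called higher and 2 lower in HFD against NC mice. Chac1, which breaks down glutathione, was at 4.41 ± 1.58 against 0.376 ± 0.186 FPKM (log2 fold change 3.26, adjusted p = 2.78e-05). Gpx1, the main cytosolic glutathione peroxidase, was at 1633 ± 168 against 1085 ± 107 FPKM (log2 fold change 0.59, adjusted p = 0.00121). Gsr, which regenerates reduced glutathione, was lower (log2 fold change -0.31, adjusted p = 0.0205). The rest of those called, named after their values were seen, were Gclc, G6pdx and Pgd, higher, and Glrx, lower, with log2 fold changes of 0.76, 0.57, 0.37 and -0.63. Gclc is the catalytic subunit of the enzyme that limits glutathione synthesis. In SZ-A against NC mice 3 were called, all higher, and they were Chac1, Gpx1 and Chac2 (log2 fold change 3.12, 0.49 and 0.48, adjusted p = 0.00406, 0.0114 and 0.0439).

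Of the export and mercapturate genes, 2 of 10 were called higher with the diet. They were the aminoacylases Acy3 and Acy1 (log2 fold change 0.42 and 0.39, adjusted p = 0.0137 and 0.0138). Acy3 was also higher in SZ-A against NC mice (log2 fold change 0.48, adjusted p = 0.0138).

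Among 14 regulators, the small Maf proteins Maff and Mafk, partners of NRF2, and the receptor CAR (Nr1i3) were called higher in HFD against NC mice, with log2 fold changes of 1.38, 0.48 and 0.38 (adjusted p = 0.00200, 0.00582 and 0.0326). Maff, Nr1i3 and Cebpb were called higher in SZ-A against NC mice, at 1.69, 0.69 and 0.57 (adjusted p = 0.00380, 0.0274 and 0.0301). The messengers of NRF2 (Nfe2l2), of its inhibitor Keap1 and of PXR (Nr1i2) were not called in any comparison. Nfe2l2 was at 15.2, 16.9 and 15.8 FPKM in NC, HFD and SZ-A mice, Keap1 at 11.9, 11.8 and 12.9, and Nr1i2 at 32.1, 28.4 and 36.0. The level of an NRF2 messenger does not measure the activity of the protein.

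Of the other NRF2 target genes, 6 of 16 were called higher and 1 lower in HFD against NC mice. Hmox1, which breaks down heme, was at 24.8 ± 3.75 against 12.04 ± 1.23 FPKM (log2 fold change 1.03, adjusted p = 8e-05), Osgin1 had a log2 fold change of 1.13 (adjusted p = 0.00559) and the carbonyl reductase Cbr3 of 1.27 (adjusted p = 0.0126). The lower gene, named after its value was seen, was Cbr1 (-0.42, adjusted p = 0.0450). In SZ-A against NC mice Osgin1 and Hmox1 were called higher (1.46 and 0.87, adjusted p = 0.0133 and 0.0412) and Me1, malic enzyme, lower (-0.54, adjusted p = 0.0175).

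Of the CAR and PXR target genes, 2 of 8 were called higher and 1 lower with the diet. Cyp2b9 was at 88.2 ± 57.2 against 0.281 ± 0.311 FPKM (adjusted p = 1.25e-05) and Cyp2b13 at 4.69 ± 5.92 against 0.00942 ± 0.0231 (adjusted p = 0.000999). The Cyp2b13 means in NC and SZ-A mice, 0.00942 and 1.37 FPKM, average below 1. It passed the filter only through the HFD mice, so its call is a description only. Cyp3a11, the main CYP3A enzyme of mouse liver, was lower, at 184 ± 70.8 against 588 ± 100 FPKM (log2 fold change -1.74, adjusted p = 0.000242). In SZ-A against NC mice Cyp2b9 was called higher (adjusted p = 0.00172) and Cyp3a11 lower (log2 fold change -2.31, adjusted p = 0.00149). The list therefore moved in both directions, as the 10 transferase genes did.

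**Figure D5:**
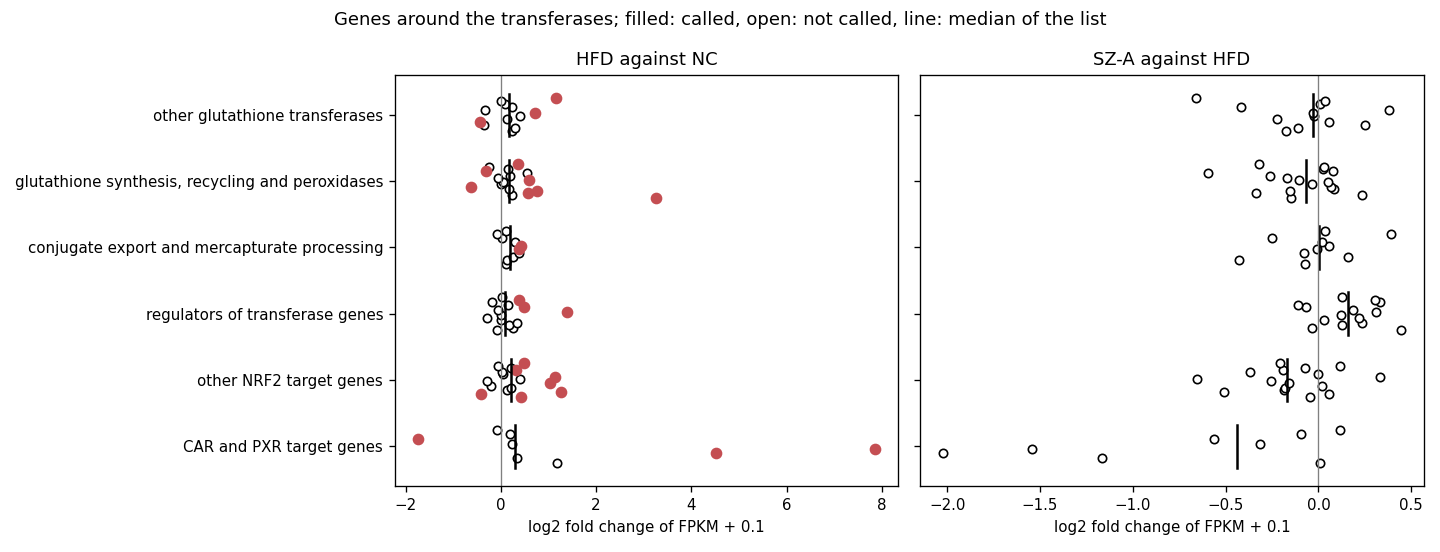
log2 fold change of FPKM + 0.1 for the tested genes of 6 lists around the transferases, in HFD against NC and SZ-A against HFD mice, which share the HFD mice. Each panel has its own horizontal scale. Filled points passed the test, open points did not, and the line is the median of the list. Of 76 genes 25 are filled on the left and none on the right.

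Within groups the 10 genes did not vary as a block. After the group means were subtracted, Pearson's r over the 18 mice was 0.77 between Gsta2 and Gsta4, 0.71 between Gsta3 and Gstm6, 0.68 between Gstm1 and Gstm3, 0.15 between Gsta1 and Gstm3 and -0.64 between Gsta3 and Gstp1. These are descriptions over mice that share group and library, with no test. The tested genes outside the family most like Gsta3 were Polr3g, Afmid and Car1 (r = 0.89, 0.88 and 0.88), those most like Gstm3 were Usp25, Pced1b and Dnajc17 (0.81, 0.81 and 0.78), those most like Gsta1 were Gnai2, Mogat1 and Ifi27l2b (0.83, 0.83 and 0.79), and those most like Gstp1 were Serpina1e, Ier3 and Cyp4a12b (0.82, 0.81 and 0.80). They were picked as the highest of 10216 genes, so values of this size have no further reading.

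Depth was even, with 17163191 to 20493907 fragments on genes per mouse, and counts of any 2 mice of the same group differed beyond sampling noise. Hepatocyte markers were the highest of the marker lists, at summed medians of 45990, 32900 and 36850 FPKM in NC, HFD and SZ-A mice for 9 markers found of 10, of which Apoa1, Cps1 and Ass1 were called lower in HFD against NC mice. Markers of other cells moved with the diet as well. The counts here and in the next paragraph belong beside the shares over all genes tested. In HFD against NC mice these were 10.7% called higher and 9.49% lower, and 3559 of 10216 genes had an unadjusted p under 0.05. In SZ-A against HFD mice they were 0.0783% and 0.0685%, with 14.8% at that unadjusted p. In SZ-A against NC mice they were 5.31% and 4.3%. Of 8 stellate cell markers 6 were called higher in HFD against NC mice, with sums of 39.0 to 54.3, 44.8 to 101 and 41.4 to 59.8 FPKM in NC, HFD and SZ-A mice. Of 8 Kupffer cell and macrophage markers 3 (Adgre1, Cd68 and Cd5l) were higher, with sums of 91.3 to 195, 145 to 303 and 169 to 216 FPKM. In SZ-A against HFD mice 1 of the 8 Kupffer cell and macrophage markers, Cd68, was called lower, and 0 of the 8 stellate cell markers were called by limma, with all 8 log2 fold changes below 0 and 5 at an unadjusted p under 0.05. Cd68 and 2 stellate cell markers (Col3a1 and Lum) were called higher in SZ-A against NC mice. No marker of either list was under 1 FPKM in every mouse.

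Of 10 periportal markers 6 were lower and 2 (Aldh1b1 and Ctsc) higher in HFD against NC mice, with sums of 2957 to 4153 FPKM in NC and 1915 to 2409 in HFD mice. Of 9 tested pericentral markers 3 (Glul, Rhbg and Lect2) were higher and 1 (Oat) lower, with sums of 5590 to 6869 and 5506 to 7689 FPKM. For endothelial cells 1 of 8 markers, Lyve1, was higher. For bile duct cells 0 of 2 tested markers were called by limma, with 2 at an unadjusted p under 0.05, and sums of all 8 were 11.6 to 40.1, 22.5 to 44.9 and 15.4 to 41.1 FPKM in NC, HFD and SZ-A mice. Sox9 was called lower in SZ-A against NC mice. For T cells 7 of 8 markers were under 1 FPKM in every mouse and the last, Themis, was higher. The highest Themis values in NC and SZ-A mice were 0.399 and 1.32 FPKM. Themis passed the filter only through the HFD mice, so its call is a description only. For adipocytes Adipoq, Plin1, Lep, Adig and Retn, 5 of 8, were under 1 FPKM in every mouse, and Cfd and Plin4 were higher, with sums of 39.0 to 118, 59.7 to 172 and 11.4 to 64.2 FPKM in NC, HFD and SZ-A mice. Fewer cells of a type and less RNA per cell cannot be told apart in whole liver, and the part of these shifts in the transferase values was not tested.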

How the data were processed

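Liver RNA of 18 mice (6 NC, 6 HFD, 6 SZ-A, grouped by sample title) was measured. The authors selected poly-A RNA, made NEBNext Ultra libraries, sequenced paired ends, aligned them to GRCm38 with HISAT2 2.0.5 and, per the labels, counted with featureCounts 1.5.0-p3. The authors deposited FPKM, which are normalized values and not counts. The tool that made the FPKM and the rule for fragments that match several genes are not given in the sources used here. All value columns were used.

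Multiplied by gene length, 100% of the values above 0 came out whole within 0.05 of a fragment, which gave the depth. The library size behind the FPKM was 0.9325 to 1.1414 times the fragments on genes of a mouse. With R 4.3.3 and limma 3.58.1 (lmFit, eBayes with an intensity trend), log2(FPKM + 0.1) was fitted for each pair of groups alone, two-sided, without covariates. A mean of 1 FPKM or more over all mice was required, which kept 10216 genes. Such fold changes understate those of low genes. The study's own test, DESeq2, needs counts and was not repeated. Python 3.11.15, pandas 2.3.3, Biopython 1.88 and matplotlib 3.10.9 did the rest, and transcripts came from GENCODE.

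The members, lists and alternatives were chosen with earlier results of these data known. The genes named are the 10 members, the other tested transferases, up to 3 called genes with the smallest adjusted p per list and comparison, Nfe2l2, Keap1, Nr1i2 and Nr1i3, and the 3 genes most like a member by Pearson's r. Markers and copies named beside a result were added for that result. The alternatives were pseudocounts of 1 and 0.01, no filter or a mean of at least 5 FPKM, rescaling to a common sum, median-ratio scaling, all mice in one fit, no trend, sample weights, a replicate block (the replicate number as a term), voom on the fragments, other fold thresholds and each mouse left out in turn. Deviations of mice with equal numbers correlated between -0.117 and 0.292 and no label ties them, so the numbers do not pair mice. The labels describe the mice of a group only as separate samples, and p-values measure the spread between them.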

Additional observations from a re-analysis of the deposited data

Results flagged for a closer look

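Gsta3 in SZ-A5 was far below the other SZ-A mice, at 76.6 FPKM where the others lay between 205.7 and 279. Its gap to the nearest mouse was 0.636 of the range of the group, past Dixon's 95% critical value for 6 mice. It was the only such value among 30 groups (10 genes in 3 groups of mice), and chance flags about 1 group in 20. The same mouse had the highest Gstp1 (1238 FPKM) and Gm3776 (2.95 FPKM) and the lowest Gsta2, Gstm2 and Gstm6 (5.54, 9.34 and 10.4 FPKM) of the SZ-A mice. Without it, Gsta3 in SZ-A against NC mice went from an adjusted p of 0.0562 to 0.000202.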

How the results depend on the processing

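Over the 747 alternatives run for the 10 genes, 700 kept direction and side of the threshold, 5 lost a call, 17 gained one and 25 changed sign. The number of transferase genes called in HFD against NC mice was 2 with no filter or a fold change over 2 and 4 to 5 with a mouse left out (5 without HFD6). It was 6 with FPKM rescaled to a common sum or with sample weights, and 3 with a mean of at least 5 FPKM, which leaves Gsta1 untested. In SZ-A against HFD mice it was 2 with FPKM rescaled to a common sum or with sample weights, 1 with all 18 mice in one fit and 0 to 1 with a mouse left out (1 without SZ-A2). In SZ-A against NC mice it was 1 (Gsta3) with a mean of at least 5 FPKM, all 18 mice in one fit, sample weights, the replicate block or voom, and 0 to 1 with a mouse left out (1 without SZ-A5). With the replicate block it was 3 in HFD against NC mice, where Gstp1 was lost, and beside Gsta3 the block changed no other call of the 10 genes. Calls over all genes in HFD against NC mice moved as well, from 2062 of 10216 in the main fit. They were 2434 with rescaled FPKM, 2666 with sample weights and 1647 with the replicate block. With a mean of at least 5 FPKM they were 1271 of 5183, with no filter 1898 of 27266, and with a fold change over 2 they were 371.

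Pathway genes called were 9 in HFD against NC mice with a fold change over 2, and 18 with the replicate block. They were 1 in SZ-A against HFD mice with rescaled FPKM or sample weights. In SZ-A against NC mice they were 5 with no filter or a fold change over 2, 12 with the replicate block and 8 to 19 with a mouse left out (8 without SZ-A3 or SZ-A6, 9 without NC2, NC3 or SZ-A2). No filter tests 27266 genes and a higher fold threshold asks for more. For the rest the cause was not tested.

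Signs changed only for differences that were not called. Rescaled FPKM gave log2 fold changes of 0.185 for Gsta4 and 0.0848 for Gstm4 in HFD against NC and -0.0490 for Gsta4 in SZ-A against HFD mice, and sample weights gave 0.0789, 0.0274 and, for Gsta3 in SZ-A against HFD mice, 0.0765. With a mouse left out, HFD against NC mice ran from -0.15 to 0.19 for Gsta4 and -0.18 to 0.0013 for Gstm4, SZ-A against HFD mice from -0.19 to 0.18 for Gsta3 and -0.0653 to 0.269 for Gsta4, and SZ-A against NC mice from -0.48 to 0.23 for Gsta1, -0.0018 to 0.21 for Gsta4, -0.25 to 0.17 for Gstm3 and -0.12 to 0.11 for Gstm6. Depth limits Gsta1, with as few as 1 fragment in a mouse.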
